A study of Mus musculus with 42 samples.

Results

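Foxa1, Foxa2 and Foxa3 are the 3 members of the Foxa group of forkhead transcription factors, and their transcript levels were followed here as mouse embryonic stem cells (ESCs) were differentiated to anterior definitive endoderm (ADE), the layer that gives rise to foregut organs. Members were taken as every array probe whose RefSeq accession belongs to one of the 3 genes, which gave 4 of the 55681 probes and 3 of the 21382 genes named on the array. Foxa2 had 2 probes, and Foxa1 and Foxa3 had 1 each. Foxa2 is described first by its brighter probe.

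Foxa proteins fold into a winged helix that resembles a linker histone, and they can bind their sites in DNA wrapped around nucleosomes, for which they are called pioneer factors. Foxa2 acts in the anterior primitive streak and node and is needed for notochord and foregut endoderm, while Foxa1 follows in the definitive endoderm and shares with Foxa2 the opening of liver genes. Foxa3 is known from later gut endoderm and from liver, where it takes part in glucose and lipid metabolism.

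All cells came from B6, a single ESC line in which GFP reports Gsc, an organiser and ADE homeobox gene, and RedStar reports Hhex, a homeobox gene of the ADE. The untreated groups were undifferentiated ESCs, unsorted cells at day 2 (d2), and cells sorted for GFP at d3 and d4 into negative (G-) and positive (G+) populations, at d5 into G-, Glow and Ghigh, and at d6 for GFP and RedStar into G+H- and G+H+. In a second series at d6, ESCs and their differentiating progeny both received DMSO (Control), or EPZ6438 replaced DMSO at 2.5 µM either during differentiation only (ADE_EPZ) or in the ESCs before it only (ES_EPZ). EPZ6438 inhibits EZH2, the catalytic subunit of the Polycomb complex PRC2, and the labels of these 3 groups name no sorting gate. Each of the 14 groups held 3 arrays, 1 from each of 3 independent experiments. Experiment 1, 2 or 3 below is the replicate number in the label. The labels do not say that arrays with the same number in different groups come from the same experiment. One-colour arrays measured Cy3-labelled RNA, and levels are log2 intensities after quantile normalisation, so that a difference of 1 is a doubling. RNA was measured in bulk, so that fewer cells that express a gene and less RNA per cell cannot be told apart.

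From 24504 to 40428 probes were well above background on an array, and no spot was saturated. The mean log2 intensity of 10 ADE markers was 6.25 to 6.50 in ESCs, where Cer1, Sox17, Cxcr4 and Gsc were not above background on any array, and 13.36 to 13.48 in d6 G+H+ cells. Experiments 1 and 2 of the untreated series were scanned in 1 calendar year and experiment 3 in another, on separate slides. Below, a scan session means the arrays scanned in 1 such year. The d5 arrays of experiment 3 stood apart: Gsc itself was at 8.45, 8.75 and 9.80 in d5 G- cells, at 9.46, 10.21 and 12.41 in d5 Glow cells and at 12.23, 12.58 and 14.06 in d5 Ghigh cells of experiments 1 to 3. Experiment 3 held the highest Gsc level in each d5 population, and differences between d5 populations are given within experiments 1 and 2 as well.

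The sequences just before the 3 genes are shown because the genes start to change at different times, and the windows let a reader see how far their starts differ. Each is the 250 bases before the RefSeq start on GRCm38.p6, 5′ to 3′ on the gene's own strand, which is the minus strand for all 3. Capitals mark every match, on either strand, to the forkhead motifs TGTTTAC and TGTTTGC, the GATA motif AGATAA, the T-box motif AGGTGTGA, the GC box GGGCGG, the CCAAT box CCAAT and the TATA box TATAAA.
Foxa1 (chr12:57546112-57546361): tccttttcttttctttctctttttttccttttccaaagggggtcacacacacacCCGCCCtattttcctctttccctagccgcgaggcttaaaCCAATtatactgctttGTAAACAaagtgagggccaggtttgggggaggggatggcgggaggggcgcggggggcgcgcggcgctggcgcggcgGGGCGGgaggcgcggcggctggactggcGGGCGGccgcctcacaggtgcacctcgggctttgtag
Foxa2, outermost start (chr2:148046970-148047219): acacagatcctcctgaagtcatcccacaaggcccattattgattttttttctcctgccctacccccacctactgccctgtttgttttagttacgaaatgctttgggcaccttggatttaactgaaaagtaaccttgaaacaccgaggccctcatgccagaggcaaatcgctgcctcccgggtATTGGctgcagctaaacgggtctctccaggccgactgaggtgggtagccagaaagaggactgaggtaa
Foxa3 (chr7:19023540-19023789): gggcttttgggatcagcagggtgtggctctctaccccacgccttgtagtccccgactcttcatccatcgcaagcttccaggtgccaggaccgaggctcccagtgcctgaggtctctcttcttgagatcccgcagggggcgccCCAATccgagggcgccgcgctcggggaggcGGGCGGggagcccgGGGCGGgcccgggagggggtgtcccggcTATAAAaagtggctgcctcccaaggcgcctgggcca

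The Foxa1 window held 1 forkhead match, which begins at position -141 from the start and reads GTAAACA on the gene's strand, together with 3 GC boxes and 1 CCAAT box. TGTTTAC lay in 3.17% of 32851 promoter windows of the same length, GGGCGG in 32.7% and CCAAT in 33.8%. The outermost Foxa2 window held 1 CCAAT box and no other match. RefSeq lists 2 further Foxa2 starts, whose windows held 2 GC boxes in one case and 1 GC box, 1 AGATAA (9.99% of windows) and 1 TATAAA (12.4%) in the other. The Foxa3 window held 2 GC boxes, 1 CCAAT box and 1 TATAAA, which begins at position -36. In base composition the windows of Foxa1 and Foxa3 were rich in G and C, at 62% and 68.8%, with 21 and 18 CpG dinucleotides, against a median over all windows of 52.4% and 6 CpG, while the outermost Foxa2 window had 50.8% and 6 CpG. The 2 further Foxa2 windows, in the order above, had 67.2% with 20 CpG and 54.4% with 13 CpG. These matches describe letters only. No binding or chromatin data were used.

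Foxa2 had the widest range of the 3 genes, and by d3 it had risen in both Gsc-positive and Gsc-negative cells. Its level in the 3 ESC arrays was 5.09, 5.51 and 5.47, and the probe was well above background on 2 of them. At d2 it stood at 7.27, 6.06 and 7.91. Every d2 array was above every ESC array, yet the difference of 1.73 (SE 0.63) had an adjusted p of 0.111 in limma with Benjamini-Hochberg adjustment over all probes. The d3 G- arrays read 8.92, 10.05 and 10.61 and the d3 G+ arrays 9.69, 11.81 and 11.77. Both d3 populations were therefore above all ESC and d2 arrays, and the populations overlapped each other. The threshold of the study was applied, under which a gene is called changed if its adjusted p is 0.01 or less and its log2 change 1.5 or more. By that rule Foxa2 rose from ESCs to d3 G+ cells by 5.73 (SE 0.63), or 53.2-fold, with a limma adjusted p of 1.37e-08, and to d3 G- cells by 4.50, with a limma adjusted p of 5.47e-06.

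Foxa2 was higher still in the last populations, although no single later step between neighbouring populations was called for it in this fit. With slide as a fixed block the step from d4 G+ to d5 Ghigh was called (2.15, limma adjusted p = 0.00864, against 1.85 and 0.105 without it). The d4 G- arrays read 10.66, 10.59 and 11.36 and the d4 G+ arrays 10.91, 11.68 and 12.20. Its d5 levels were 9.60, 11.51 and 12.91 in G-, 10.49, 11.67 and 13.64 in Glow, and 12.88, 13.22 and 14.27 in Ghigh cells. The d5 groups overlapped, and within each the array of experiment 3 was the highest, as it was for Gsc. At d6 the arrays lay close together, at 13.61, 13.91 and 13.84 in G+H- and 13.57, 13.55 and 13.82 in G+H+ cells. The rise from ESCs to d6 G+H+ cells was 8.29 (SE 0.63), or 312.8-fold, with a limma adjusted p of 1.60e-12. Within the scan session of experiments 1 and 2 that rise was 8.26, and within the session of experiment 3 it was 8.35.

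The second Foxa2 probe was above background on none of the 3 ESC arrays, on 2 of the 3 d2 arrays and on all arrays from d3 on. In ESCs it read 4.30, 4.95 and 4.77, in d3 G+ cells 7.82, 9.90 and 9.82, and in d6 G+H+ cells 11.56, 11.86 and 11.67. Because the ESC level is not well above background, the fold was taken against a reference level. On each ESC array this was the lowest level of any spot well above background, or the probe's own level where that was higher. The reference is not a detection limit of the probe, so folds marked "at least" here and below are not strict bounds. By this reference d6 G+H+ cells were at least 111.2-fold higher, d3 G- cells at least 8.47-fold and d3 G+ cells at least 19.4-fold. The limma adjusted p of the d3 G- and d3 G+ differences were 0.000137 and 2.72e-07.

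Foxa1 started from a measurable level and passed the threshold against them at d3 in G+ cells and from d4 in G- cells, with a further step at d5. In ESCs it read 6.73, 7.12 and 6.96, and it was above background on all 42 arrays. At d2 it was 6.94, 7.66 and 7.47, which overlapped the ESC arrays, and the difference of 0.42 (SE 0.45) was not called. In d3 G- cells it was 6.36, 8.63 and 8.45, with experiment 1 below all the ESC arrays and experiments 2 and 3 above them. In d3 G+ cells it was 8.91, 9.63 and 10.05, above every ESC, d2 and d3 G- array. The rise from ESCs to d3 G+ cells was 2.60, or 6.06-fold, with a limma adjusted p of 3.49e-05, whereas the difference of 0.88 between d3 G- cells and ESCs had a limma adjusted p of 0.283.

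The second step of Foxa1 came between d4 and d5. Its d4 levels were 9.27, 9.07 and 9.27 in G- and 9.73, 9.28 and 10.15 in G+ cells, and the difference between d4 G+ and d3 G+ cells was 0.19 and not called. At d5 Foxa1 was at 8.81, 9.26 and 10.17 in G-, at 9.44, 9.79 and 11.51 in Glow, and at 11.84, 11.95 and 12.76 in Ghigh cells. Each Ghigh array was above every Glow and G- array. From d4 G+ to d5 Ghigh cells Foxa1 rose by 2.46, with a limma adjusted p of 0.000684. Without experiment 3 of d5 Ghigh the difference was 2.17 with a limma adjusted p of 0.0111 and was not called, nor was it with the compared arrays alone (adjusted p = 0.0201). At d6 the levels were 12.72, 12.51 and 13.24 in G+H- and 12.59, 12.51 and 13.43 in G+H+ cells. The change from ESCs to d6 G+H+ cells reached 5.91 (SE 0.45), or 60.2-fold, with a limma adjusted p of 1.14e-12.

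**Figure D1:**
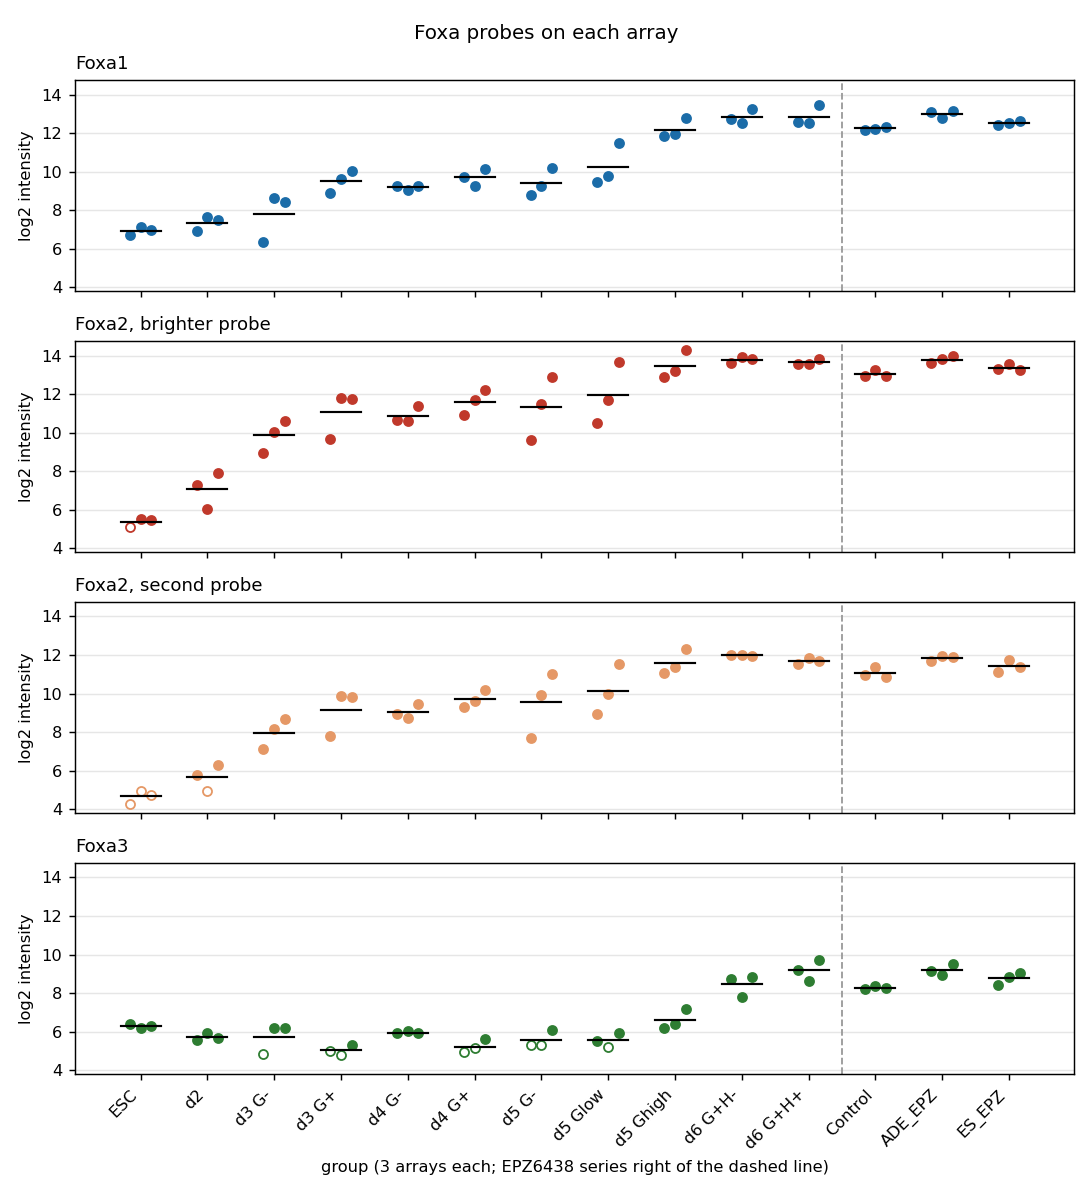
Log2 intensity of each Foxa probe (y axis) on every array of the 14 groups (x axis), with points for single arrays (open where not well above background) and bars for group means. Foxa2 is above its ESC level on every d2 array and both Foxa2 and Foxa1 are called from d3 G+ on, while Foxa3 stays at or below its ESC level until d5 Ghigh and is clearly higher at d6.

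Foxa3 followed a different course, with low values before a late rise. In ESCs it was at 6.42, 6.19 and 6.32, and at d2 at 5.58, 5.93 and 5.68. All d2 arrays were below all ESC arrays, but the difference of -0.58 (SE 0.31) was not called. At d3 it read 4.86, 6.21 and 6.19 in G- and 4.99, 4.80 and 5.33 in G+ cells. Here the probe was well above background on 2 of 3 G- arrays and on 1 of 3 G+ arrays, so the low values are close to the floor of the assay. The d3 G+ level was below that of ESCs by -1.27 with a limma adjusted p of 0.00296, which passes the p threshold but not the threshold on size. Scaled to the 75th percentile of each array in place of quantile normalisation, it was -2.50 and called. At d4 the levels were 5.94, 6.03 and 5.92 in G- and 4.93, 5.16 and 5.60 in G+ cells. Every d4 G+ array lay below every d4 G- array.

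Foxa3 first passed the threshold against ESCs on the last day sampled. At d5 it stood at 5.30, 5.32 and 6.09 in G-, 5.51, 5.21 and 5.94 in Glow, and 6.21, 6.43 and 7.21 in Ghigh cells. Ghigh arrays were above all Glow and G- arrays and overlapped the ESC arrays. At d6 it reached 8.74, 7.78 and 8.83 in G+H- and 9.21, 8.62 and 9.70 in G+H+ cells, all above every earlier array. From ESCs to d6 G+H- cells it rose by 2.14 (SE 0.31), or 4.41-fold, with a limma adjusted p of 1.48e-06, and to d6 G+H+ cells by 2.87, or 7.30-fold, with a limma adjusted p of 4.57e-09. The step from d5 Ghigh to d6 G+H- cells was itself called, at 1.84 with a limma adjusted p of 0.00018. That call was lost with the percentile scaling (1.92, adjusted p = 0.0204), a background offset of 50 (1.49) or the compared arrays alone (adjusted p = 0.0675).

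The order of onset was Foxa2 and Foxa1 at d3, then Foxa3 at d6. Along the G+ path, which runs through d2, d3 G+, d4 G+, d5 Ghigh and both d6 populations, 0 of 3 members were called against ESCs at d2, where 0.903% of all probes were called in either direction and limma gave 1 member (Foxa2) an unadjusted p under 0.05. At d3 G+, 2 of 3 members were called higher, against 1.49% of all probes. The count stayed at 2 of 3 in d4 G+ (1.61% of probes) and d5 Ghigh cells (1.94%), as it did off this path in d5 Glow cells (1.87%), and was 3 of 3 in d6 G+H- (2.8%) and d6 G+H+ cells (3.22%). Sampling days were 1 day apart at the closest, so Foxa1 and Foxa2 cannot be ordered along this path.

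Along the G- path the first called populations did differ between Foxa2 and Foxa1. In d3 G- cells 1 of 3 members, Foxa2, was called higher than in ESCs, against 0.533% of all probes. In d4 G- (0.695%) and d5 G- cells (1.06%) it was 2 of 3, with Foxa1 up by 2.27 in d4 G- cells at a limma adjusted p of 0.000443. Foxa3 was called in no G- population. The Foxa1 step from d3 G- to d4 G- cells was itself not called, at 1.39 with a limma adjusted p of 0.487. With 1 array left out, the Foxa1 difference between d3 G- cells and ESCs ran from 0.47 to 1.60 and was called in 0 of 6 fits. The order of Foxa2 and Foxa1 on this path therefore rests on calls against ESCs only. From d2 to d3 G- cells Foxa2 was the 1 member of 3 called, at 2.78 with a limma adjusted p of 0.0059, where 0.709% of probes were called. Its second probe gave 2.302 with a limma adjusted p of 0.014 and was not called. The call on the brighter probe was lost with the compared arrays alone (adjusted p = 0.0346) and without the d2 array of experiment 1 (2.87), the d2 array of experiment 2 (2.26), the d3 G- array of experiment 2 (2.68) or the d3 G- array of experiment 3 (2.40). From d2 to d3 G+ cells, where 3.28% of probes were called, Foxa2 rose by 4.01 and Foxa1 by 2.18, while Foxa3 differed by -0.69 and was not called.

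**Figure D2:**
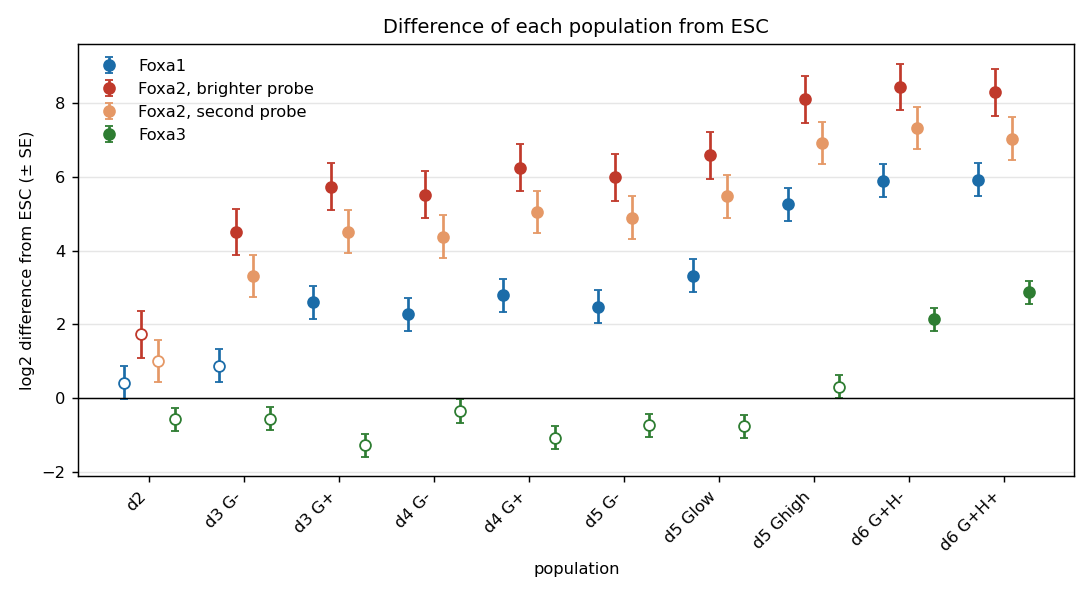
Log2 difference from ESCs (y axis, with standard error) for each Foxa probe in the 10 differentiated untreated populations (x axis), filled where called. Foxa2 has the largest difference from ESCs of the 3 genes in every population, and Foxa3 lies below 0 until d5 Ghigh.

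Levels were also expressed as a share of each gene's own log2 change from ESCs to d6 G+H+ cells. Foxa2 had covered 20.8% at d2, then 54.3% (d3 G-), 69.2% (d3 G+) and 97.7% (d5 Ghigh). Foxa1 had covered 7.13% at d2, 14.8% in d3 G-, 44.0% in d3 G+, 47.1% in d4 G+ and 88.8% in d5 Ghigh cells. Foxa3, below its ESC level at first, was at -44.3% (d3 G+), 10.7% (d5 Ghigh) and 74.7% (d6 G+H-). These shares are descriptions on the log2 scale, not shares of the signal, and all of them use the same ESC and d6 G+H+ arrays. The ESC level of Foxa2 was well above background on 2 of 3 arrays only, and no member was called against ESCs at d2. Differences in timing between the genes were not tested.

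Ranked by level over the 11 untreated groups, most neighbours in the order could not be separated beyond the spread of their arrays. For Foxa2 the 1 pair of neighbours that was called was d2 and d3 G-, and for Foxa3 it was d5 Ghigh and d6 G+H-. No pair of neighbours was called for Foxa1, although its step of 1.93 from d5 Glow to d5 Ghigh was called with the experiment as a block (adjusted p = 0.00197). Of the 55 pairs of groups, 35 were called for Foxa1, 28 for the brighter and 30 for the second Foxa2 probe, and 19 for Foxa3.

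Sorting on Gsc reporter level asks whether Foxa expression differs between Gsc-positive and Gsc-negative cells of the same day. At d3 none of the 3 members was called between G+ and G- cells in limma, where 0.984% of all probes were, and 2 members (Foxa1 and Foxa3) had an unadjusted p under 0.05. Foxa1 was higher in G+ cells in 9 of 9 pairs of arrays, by 1.72 or 3.30-fold, with a limma adjusted p of 0.0167. Same-numbered d3 arrays deviated together, which does not separate experiment from scan session. With the experiment as a block over all arrays, the same difference had a limma adjusted p of 0.00102 and was called. It was 1.78 within the scan session of experiments 1 and 2 and 1.61 within that of experiment 3. Without the d3 G- array of experiment 1 it was 0.99 (limma adjusted p = 0.266), and without that of experiment 2 it was 2.13 (0.00778) and called. Foxa2 differed by 1.23, higher in 7 of 9 pairs, with a limma adjusted p of 0.448, and Foxa3 by -0.71, lower in 7 of 9 pairs, with a limma adjusted p of 0.294.

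At d4 the difference between G+ and G- cells was 0.52 for Foxa1, 0.73 for Foxa2 and -0.73 for Foxa3, which was lower in 9 of 9 pairs with a limma adjusted p of 0.253. None of the 3 was called, against 1.13% of probes, and 1 member (Foxa3) had an unadjusted p under 0.05 in limma. From d3 G+ to d4 G+ cells again 0 of 3 were called, with 0.0144% of probes called and no member at an unadjusted p under 0.05 in limma. At d5 the difference between Glow and G- cells was 0.83 for Foxa1, 0.60 for Foxa2 and -0.02 for Foxa3. Within experiments 1 and 2 it was 0.58, 0.53 and 0.05, and with 1 array left out the Foxa1 value ran from 0.20 to 1.24. Limma called 0 of 3, gave no member an unadjusted p under 0.05 and called 0.39% of probes.

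Between d5 Ghigh and Glow cells all 3 members had an unadjusted p under 0.05, all were higher in Ghigh, and 0 of 3 were called in limma, where 0.122% of probes were. The difference was 1.93 for Foxa1 (9 of 9 pairs, limma adjusted p = 0.0323), 1.52 for Foxa2 (limma adjusted p = 0.423) and 1.06 for Foxa3 (9 of 9 pairs, limma adjusted p = 0.151). With the experiment as a block the Foxa1 difference had a limma adjusted p of 0.00197 and was called. Without the Glow array of experiment 3 it was 2.56 (0.00107) and called as well. Within the session of experiments 1 and 2 the differences were 2.28, 1.96 and 0.96 for Foxa1, Foxa2 and Foxa3, and within that of experiment 3 they were 1.25, 0.62 and 1.27. Against d5 G- cells, where 1.27% of probes were called, d5 Ghigh cells had 1 of 3 members called, Foxa1, at 2.77 with a limma adjusted p of 7.27e-05 (0.0198 with the compared arrays alone). Foxa2 differed by 2.12 (limma adjusted p = 0.0429) and Foxa3 by 1.04 (0.0434). The Foxa2 difference was called with the experiment as a block (0.00286), with the scan session (0.00441) or the slide as a block (0.00126 fixed, 0.00375 random), and without the d5 G- array of experiment 3 (2.90). Same-numbered arrays of d5 Ghigh and G- did not all deviate together (lowest correlation 0.0758), so pairing does not back the experiment block there. Within experiments 1 and 2 the differences from G- were 2.86, 2.49 and 1.01 for Foxa1, Foxa2 and Foxa3. From d4 G+ to d5 Ghigh cells 1 of 3, Foxa1, was called against 0.548% of probes, and Foxa3 differed by 1.38 with a limma adjusted p of 0.00708, which is under the threshold on size. It was called with the percentile scaling (2.58, adjusted p = 0.00266), with slide as a fixed block (1.52, 0.000597), without the d4 G+ array of experiment 3 (1.57) and without the d5 Ghigh array of experiment 1 (1.58).

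**Figure D3:**
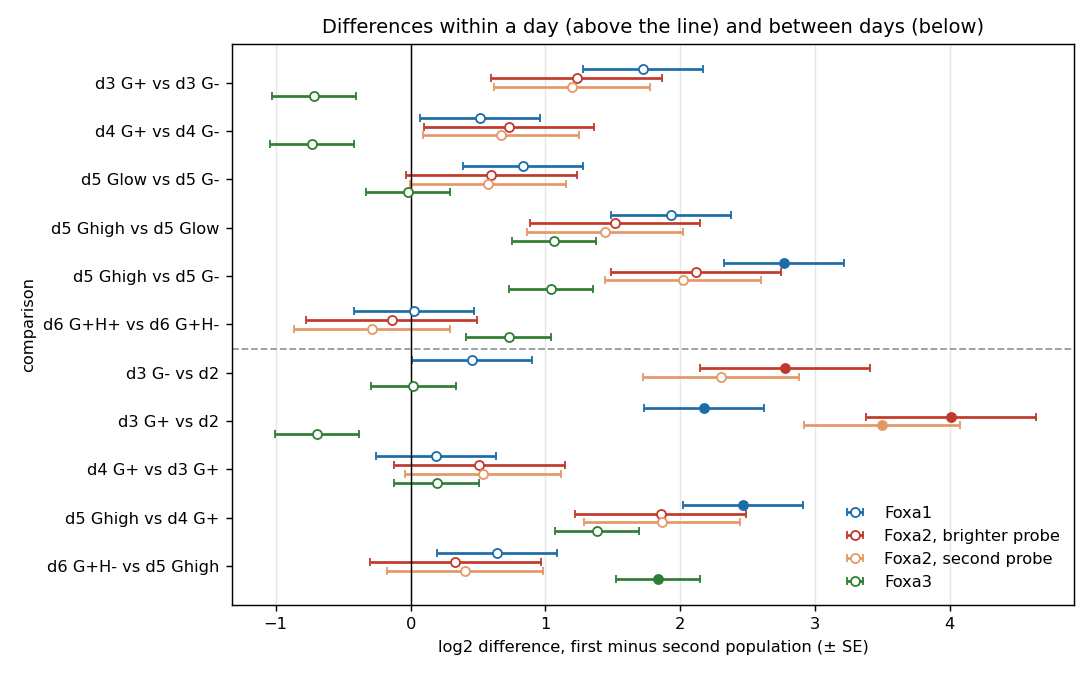
Log2 differences with standard errors (x axis) for each Foxa probe in each comparison of untreated populations (y axis), filled where called. Called are Foxa1 and both Foxa2 probes from d2 to d3 G+, the brighter Foxa2 probe from d2 to d3 G-, Foxa1 from d4 G+ to d5 Ghigh and between d5 Ghigh and G-, and Foxa3 from d5 Ghigh to d6 G+H-.

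Foxa3 was lower in G+ than in G- cells at d3 and d4 and higher in Ghigh than in G- cells at d5, where Glow differed from G- cells by -0.02. The probe was well above background on only 1 of 3 arrays in each of d3 G+, d4 G+ and d5 G- cells. These differences therefore rest in part on values close to the floor of the assay. The change of the difference between G+ (Ghigh at d5) and G- cells from d3 to d5 was 1.76 (SE 0.44), with a limma adjusted p of 0.0480 where 0.287% of probes were called, and from d4 to d5 it was 1.77 (SE 0.44), with a limma adjusted p of 0.123 where 0.0736% were called. Neither was called in this fit. The change from d3 to d5 was called with the experiment (0.00922), the scan session (0.00676) or the slide as a block (0.00403 fixed, 0.00545 random), and without the d3 G- array of experiment 1 (2.20). The experiment block again includes d5 Ghigh and G- arrays, which did not all deviate together. For Foxa1 the corresponding change from d4 to d5 was 2.25 (SE 0.63), with a limma adjusted p of 0.240.

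No Foxa gene was called between the populations sorted on the Hhex reporter at d6. Between G+H+ and G+H- cells Foxa1 differed by 0.02, Foxa2 by -0.14 and Foxa3 by 0.73. Limma called 0 of 3 members and 0% of all probes, and 1 member (Foxa3) had an unadjusted p under 0.05. Hhex itself read 12.52, 12.86 and 12.53 in G+H+ and 12.32, 12.50 and 11.68 in G+H- cells, so the lowest G+H+ array lay just above the highest G+H- array for the gene of the gate. From d5 Ghigh to d6 G+H- cells Foxa3 was the 1 of 3 members called, against 1.13% of probes.

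Markers of other cell types moved with these contrasts. At d3 the mean level of 11 mesoderm markers was 6.52 to 6.84 in G- and 8.89 to 9.12 in G+ cells, with all 11 above background on at least 1 array of each group. In G+ cells 4 of the 11 were called higher, Mesp1 by 4.94, Pdgfra by 4.26, Mesp2 and Tbx6. In the same contrast 6 of 11 pluripotency markers were called lower and 4 of 10 ADE markers higher. Of all genes, 0.697% were called higher there and 1.09% lower. In d5 G- cells the mesoderm mean was 9.29, 8.49 and 7.27 in experiments 1 to 3, lowest where Foxa1 and Foxa2 were highest. The part of these shifts in the Foxa values was not tested.

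The genes around the Foxa group were described from lists of factors, signals and targets, without any test of a list. Of 18 mesendoderm and endoderm transcription factors, 6 were called higher in d3 G+ than in d3 G- cells and 0 lower, against 0.697% and 1.09% of genes. These were Gata6 (4.63), Lhx1 (3.83), Gsc (3.55), Gata4 (3.52), Mixl1 and Eomes, of which the GATA factors bind beside Foxa proteins at endoderm genes and Gsc is the gene sorted on. The list median was 0.43 against 0.01 over all genes. Limma called 0 of 16 liver genes known as Foxa targets, with 1 at an unadjusted p under 0.05. It called 0 of 12 genes on a node, notochord and floor plate list, with 3 at an unadjusted p under 0.05. Of 15 genes of the Nodal pathway, the signal that acts before Foxa2 in the streak, 1 was called, the ligand gene Gdf3, at -3.66. In limma 7 of the 15 had an unadjusted p under 0.05, and the list median was 0.18.

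By d6, against ESCs, 13 of the 18 endoderm factors were called higher and 1 lower, where 5.74% and 5.27% of genes were, with a list median of 3.85 against -0.0005 over all genes. The lower one was Cdx2, a hindgut factor, which was not above background in d6 G+H+ cells. Gata6 was up by 7.21, Lhx1 by 7.09 and Gata4 by 6.21, Gsc was at least 306.7-fold higher and Sox17, an endoderm SOX factor, at least 184.6-fold higher. Most of the 16 Foxa targets were not called, and only calls in the higher direction are given here. They were Hnf4a, a nuclear receptor of liver and gut, at least 80.2-fold, Ttr, a thyroxine carrier, at least 16.5-fold, Apoa1, an apolipoprotein, at least 10.99-fold, and Apob by 2.66 on the log2 scale. Of 15 Nodal pathway genes 4 were higher, the antagonists Lefty1 (3.27) and Lefty2 (3.14), the receptor gene Acvr1b and the protease gene Furin, and 4 were lower, Gdf3 (-5.97), the co-receptor Tdgf1 (-4.68), the protease Pcsk6 (-3.72) and the ligand Gdf1 (-2.85). Of the 12 genes on the node, notochord and floor plate list, Nkx6-1 (4.01) and Sox9 (2.91) were higher. Cdx1 (-4.10) was lower, but it is a caudal-type homeobox gene and not a marker of these tissues.

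Of 41 other forkhead genes most were not called. In d6 G+H+ cells against ESCs 2 were called higher, Foxq1 by 7.16 and Foxp4 by 1.59, and 4 were lower, of which Foxd3, a factor of pluripotent cells and neural crest, fell by 3.95, Foxp1 by 3.93 and Foxn4 by 3.64, and Foxr2 was at least 2.80-fold lower. Of all genes, 5.74% were called higher and 5.27% lower in that contrast. The forkhead list median was 0.03. At d3, Foxq1 was higher (2.20) and Foxn4 lower (-1.91) in G+ than in G- cells, where 0.697% of genes were called higher and 1.09% lower. Of 9 measured genes for proteins that work with Foxa factors, 3 were higher at d6, Gata6, Gata4 and Tle6 (2.20), a Groucho-family gene, and 1 was lower, Nr5a2, an orphan nuclear receptor, which was at least 77.6-fold lower. Between d5 Ghigh and Glow cells 4 of the 18 endoderm factors were called higher, Sox17 (2.97), Hnf4a (2.55), Prdm1 (2.16) and Hhex (2.13), where 0.239% of genes were called higher and 0.0234% lower. None of them was called when the fit used the compared arrays alone.

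The genes whose group means most resembled each member were found among 15554 genes by Pearson's r over the 11 untreated groups. For Foxa1 they were Prss1 (0.987), Gm2696 (0.985), Eid1 (0.984), Gm5771 (0.984) and Dapk2 (0.983), and 159 genes had an r above 0.95. Foxa2 was followed most closely by Ttc3 (0.985), Slc25a47 (0.982), Cd40 (0.981), Mogat2 (0.980) and Man1b1 (0.979), with 77 genes above 0.95. For Foxa3 the 5 were Tnnt1 (0.989), Cish (0.988), 2210404E10Rik (0.987), Ctsf (0.986) and Ccl27a (0.985), with 169 above 0.95. Between the members r was 0.92 for Foxa1 and Foxa2, 0.69 for Foxa1 and Foxa3 and 0.44 for Foxa2 and Foxa3. The group means share arrays and a time axis, so these coefficients describe shape only.

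On the chromosome, Foxa2 lies next to the long non-coding RNA gene 9030622O22Rik in the RefSeq order. That transcript rose from ESCs to d6 G+H+ cells by 2.94 (SE 0.29), with a limma adjusted p of 5.15e-10, but at d3 G+ it differed from ESCs by 0.20 with a limma adjusted p of 0.826. Foxa2 was already called there. None of the 4 nearest genes of Foxa3 was called at d6, at -0.46 for Mypop, 0.44 for Irf2bp1, 0.73 for Sympk and -0.19 for Rsph6a. No probe was matched to the 4 neighbours of Foxa1 or to the other 3 of Foxa2.

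EPZ6438 given during differentiation went with slightly higher levels of all 3 genes that did not pass the threshold. Foxa3 was at 8.22, 8.35 and 8.30 in Control, at 9.14, 8.95 and 9.53 in ADE_EPZ and at 8.43, 8.85 and 9.03 in ES_EPZ cultures. Every treated array was above every Control array for Foxa3. The difference was 0.92, or 1.89-fold, in ADE_EPZ cultures, with a limma adjusted p of 0.0562, and 0.48 in ES_EPZ cultures, with a limma adjusted p of 0.60002. Foxa1 was at 12.18, 12.23 and 12.31 in Control, at 13.09, 12.78 and 13.12 in ADE_EPZ and at 12.43, 12.54 and 12.63 in ES_EPZ cultures. That is a difference of 0.76 (limma adjusted p = 0.374) in ADE_EPZ and 0.30 (0.899) in ES_EPZ, with no overlap with Control in either. Foxa2 was at 12.93, 13.23 and 12.95 in Control, at 13.62, 13.79 and 13.95 in ADE_EPZ and at 13.30, 13.58 and 13.25 in ES_EPZ cultures. Its difference was 0.75 (limma adjusted p = 0.616) and 0.34 (0.927), each higher in 9 of 9 pairs of arrays. These adjusted p use a spread pooled over all 42 arrays. With the compared arrays alone, limma gave ADE_EPZ adjusted p of 0.0143 for Foxa1, 0.0184 for Foxa2 and 0.0125 for Foxa3. For ES_EPZ they were 0.402, 0.415 and 0.297, and none of these differences was called.

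Limma thus called 0 of 3 members in ADE_EPZ cultures, where 1.38% of probes were called and 1 member (Foxa3) had an unadjusted p under 0.05, and 0 of 3 in ES_EPZ cultures, where 0.233% were called and no member did. Each slide of this series held 1 array of each regimen. Within the 3 slides the ADE_EPZ difference was 0.90, 0.78 and 0.59 for Foxa1, 0.72, 0.66 and 0.87 for Foxa2 and 1.18, 0.84 and 0.73 for Foxa3. All 9 of these values were above 0. The ES_EPZ differences within slides ran from 0.12 to 0.40 for Foxa1, from 0.03 to 0.65 for Foxa2 and from 0.14 to 0.67 for Foxa3. Between ADE_EPZ and ES_EPZ the differences were 0.46, 0.41 and 0.43 for Foxa1, Foxa2 and Foxa3, and limma called 0 of 3 (0.0647% of probes), with no member at an unadjusted p under 0.05.

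**Figure D4:**
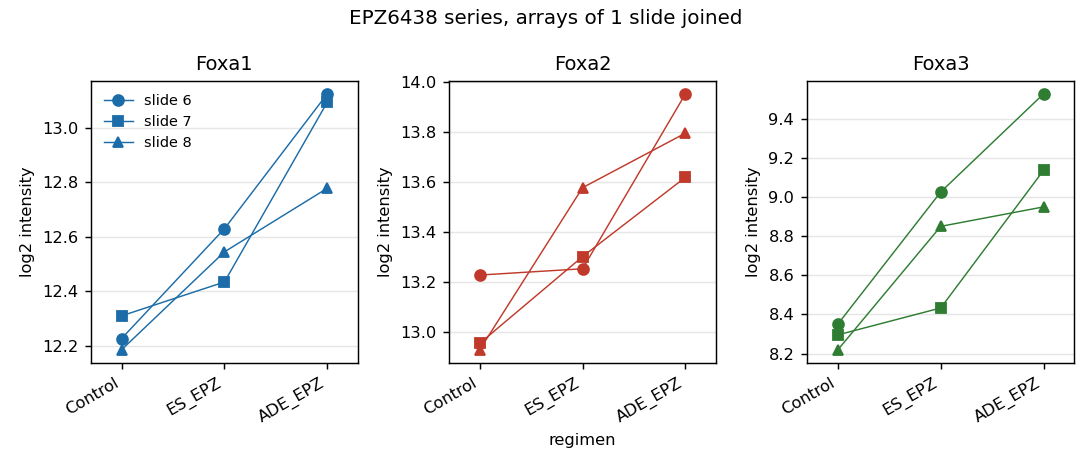
Log2 intensity (y axis) of Foxa1, the brighter Foxa2 probe and Foxa3 under each EPZ6438 regimen (x axis), with 1 point an array and lines joining the 3 arrays of a slide. On each slide the level is lowest in Control and highest in ADE_EPZ, and none of these differences was called.

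In the same cultures the mean level of 10 ADE markers was 11.40 to 11.95 in Control, 12.61 to 13.24 in ADE_EPZ and 12.29 to 13.02 in ES_EPZ, with 3 of 10 called higher in ADE_EPZ, and the mean of 11 mesoderm markers was 8.62 to 8.82, 7.55 to 8.14 and 7.45 to 8.43, with 1, Meox1, called lower in ADE_EPZ (-2.44). All 10 ADE markers were above background on at least 1 array of each group, and of the mesoderm markers Msgn1 was not in Control and ES_EPZ. The mean of 11 pluripotency markers was 7.84 to 8.35 in Control, 8.77 to 9.19 in ADE_EPZ and 7.72 to 8.76 in ES_EPZ, and that of 9 neural markers was 6.41 to 6.69, 6.96 to 7.21 and 6.56 to 7.01, so that ADE_EPZ did not overlap Control in either. The mean of 11 visceral endoderm markers was 8.45 to 8.81, 8.79 to 9.39 and 8.23 to 8.94. Among the markers called higher in ADE_EPZ were the pluripotency marker Zfp42 (1.51) and the visceral endoderm marker Rhox5 (1.84). All pluripotency and visceral endoderm markers were above background on at least 1 array of each group, while of the neural markers Olig2 and Neurog2 were not in Control or ADE_EPZ, Hes5 was not in Control and Pax6 was not in ADE_EPZ. The part of all these markers in the Foxa differences was not tested. Of the 18 endoderm factors 2 were called higher in ADE_EPZ cultures, Hhex by 2.23 and the pancreas and duodenum factor Pdx1 by at least 2.75-fold, and 1 lower, Mixl1, a streak homeobox gene, by -3.35, where 1.95% and 0.786% of genes were. Limma called 0 of the 16 Foxa targets, with 2 at an unadjusted p under 0.05. In ES_EPZ cultures Mixl1 was lower (-1.72) and Tle6 higher (1.67), the only calls in these 6 lists there, where 0.36% of genes were called higher and 0.0608% lower. The untreated and EPZ6438 series were hybridised on separate slides and scanned apart, so levels were not compared between them.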

How the data were processed

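Total RNA of 42 samples was measured on one-colour Agilent arrays. The authors corrected background with limma (normexp, offset 10), quantile-normalised the arrays and deposited the log2 values, which were used here after averaging spots of 1 probe (59305 spots, 55681 probes). Per the labels, limma made these values, and its version is not given in the sources used here. The deposited scanner files hold linear intensities and flags of signal above background. Log2 values recomputed from these intensities correlated with the deposited log2 values at 0.999984 or more. The study's linear model was refitted with limma 3.58.1 in R 4.3.3 (1 mean per group, all arrays, Benjamini-Hochberg over all probes, adjusted p of at most 0.01 and log2 change of at least 1.5) and was tested on simulated data. Where a probe was not well above background on any array of a group, the fold is given as "at least" a value. That value uses the lowest level of any spot well above background on each array, or the probe's own level where higher. The members, the gene lists and the comparisons were chosen with earlier results of these data known. Named genes were the members, the 5 most similar genes of each, up to 4 called genes per list and direction, any further gene of a small count, and the 2 nearest genes on each side. Marker lists covered ADE, pluripotent, mesoderm, visceral endoderm and neural cells. Against ESCs, d6 G+H+ cells had 10 of 10 ADE markers called higher, 11 of 11 pluripotency markers lower, 3 of 11 mesoderm markers higher, 5 of 11 visceral endoderm markers higher and 1 lower, and 2 of 9 neural markers lower. Of all genes, 5.74% were called higher there and 5.27% lower. Same-numbered samples of independent experiments were taken as paired where the correlation of their deviations was over 0.1 in all 3 pairs, which ran from 0.25 to 0.67 for d3 G+ and G- and from 0.20 to 0.59 for d5 Ghigh and Glow. For d5 Ghigh and G- the lowest was 0.0758, so these did not meet the rule. In the untreated series experiment 3 was scanned apart from experiments 1 and 2, so the rule does not separate experiment from scan session. The experiment block was fitted over all arrays, including groups whose pairs did not meet the rule. Gene names and promoter sequences came from RefSeq (GRCm38.p6), while the array annotation uses mm9. The values of some listed genes are not reported here.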

Additional observations from a re-analysis of the deposited data

How the results depend on the processing

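Along the G+ path, the order of onset was the same under all 34 results from other settings and all 63 from leaving out 1 array. The order along the G- path was not part of these results. Of the differences of the members, 880 kept direction and call under other settings, 22 gained and 8 lost the call and 8 changed sign. With 1 array left out, 509 kept both, 6 gained and 5 lost the call and 20 changed sign. These counts are not a measure of robustness. A difference cannot change when only probes above background are fitted, with the compared arrays alone, or with the replicate or scan-session block. Only its adjusted p can change there, and a difference called in neither fit counts as kept. With the replicate block, the Foxa1 difference between d3 G+ and G- cells was 1.72 (adjusted p = 0.00102) and that between d5 Ghigh and Glow cells 1.93 (0.00197). The block for scan session, chosen after seeing the data, gave 1.72 (0.00114) and 1.93 (0.00213). The slide as a fixed block gave 1.59 (0.00230) and 2.38 (0.00137), and as a random block, with a correlation of 0.209, 1.64 (0.00315) and 2.14 (0.00293). Also under the replicate block, Foxa2 was called between d5 Ghigh and G- cells (2.12, adjusted p = 0.00286) and so was the Foxa3 interaction from d3 to d5 (0.00922). Both use d5 Ghigh and G- arrays, which did not meet the rule for pairing.

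For Foxa3, where signs changed, the interaction of population and day from d3 to d4 was 0.0005 with an offset of 50, 0.039 with no background correction and 0.10 with scaling to the 75th percentile, and its d3 G- to d2 difference was -0.14 with that scaling and -0.0395 with slide as a fixed block. For Foxa1 the sign changed between d6 G+H+ and G+H- cells, at -0.053 with the percentile scaling, -0.37 with slide fixed and -0.18 with slide random. Leaving out arrays gave ranges of 0.99 to 2.13 for Foxa1 between d3 G+ and G- cells, 1.53 to 2.56 for Foxa1 between d5 Ghigh and Glow, 2.26 to 3.24 for Foxa2 between d3 G- and d2 (2 of 6 called), 2.17 to 2.68 for Foxa1 and 1.09 to 1.58 for Foxa3 between d5 Ghigh and d4 G+, and 1.25 to 2.90 for Foxa2 between d5 Ghigh and G-. They ran from -0.21 to 0.47 for Foxa3 between d3 G- and d2, -0.24 to 0.43 and 1.46 to 2.20 for the Foxa3 interactions from d3 to d4 and d3 to d5, -0.13 to 0.45 for Foxa1 and -0.19 to 0.87 for Foxa2 between d4 G+ and d3 G+, -0.27 to 1.38 for Foxa2 and -0.21 to 0.24 for Foxa3 between d5 Glow and G-, and -0.27 to 0.23 for Foxa1 between d6 G+H+ and G+H-.

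Foxa2 between d3 G- and d2 lost its call with an offset of 50 (2.43) and with the compared arrays alone (adjusted p = 0.0346), and Foxa3 between d6 G+H- and d5 Ghigh lost it with an offset of 50 (1.49), percentile scaling (1.92) and the compared arrays alone (0.0675). Percentile scaling moved the median of all probes by -0.11 to -0.20 or 0.16 in 7 comparisons, and under it the lower Foxa3 level of d3 G+ (-2.50) and d4 G+ cells (-2.005) against ESCs was called. The number of arrays limits the precision, and values near background, as for Foxa3 at d3 to d5, understate differences. The cause of these changes with the setting was not tested.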
